A study of Mus musculus with 18 samples.

Results

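The mitochondrial genome of the mouse encodes 37 genes, and all 37 were found in the deposited count table of hippocampal RNA, among 57180 gene identifiers, as the genes whose symbol begins with mt-. They were 13 genes for protein subunits of the respiratory chain and ATP synthase, 2 ribosomal RNA genes and 22 transfer RNA genes. The libraries came from 18 adolescent male wild-type C57BL/6J mice, 6 per group and 1 library per mouse, all given the same batch label. The exercised CSDS mice went through chronic social defeat stress (CSDS), in which a mouse is placed with an aggressive resident, and trained aerobically beginning 1 week ahead of the defeat and throughout it. The CSDS mice went through the defeat without training, and the control mice had no treatment. No group that trained without defeat was analysed here, so exercise is seen only on top of CSDS.

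Mitochondrial DNA is a compact circle that sits in many copies in each mitochondrion. Both of its strands are read by a dedicated RNA polymerase, Polrmt, with the factor Tfam, into long transcripts that are cut at the transfer RNAs into messenger, ribosomal and transfer RNAs. The messenger RNAs code for core subunits of complex I (NADH dehydrogenase), complex III (cytochrome bc1), complex IV (cytochrome c oxidase) and ATP synthase. The remaining subunits come from nuclear genes, and neurons rely on these complexes for most of the energy used at synapses.

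All the coding genes except mt-Nd6 lie on one strand, and 8 transfer RNA genes lie with mt-Nd6 on the other. Neighbours can overlap, as mt-Atp8 and mt-Atp6 do over 43 bases and mt-Nd4l and mt-Nd4 over 7. In the GRCm38 annotation (GENCODE M21), a stretch of nuclear chromosome 1, chr1:24612407-24616197 on the minus strand, holds 6 pseudogenes that repeat parts of 6 of these genes and had counts in the libraries. Their order along the minus strand is that of the originals, Gm29216 for mt-Co1, Gm28661 for mt-Co2, Gm10925 for mt-Atp6, Gm28437 for mt-Co3, Gm28438 for mt-Nd3 and Gm10222 for mt-Nd4l. Gm28661, Gm10925, Gm28437 and Gm10222 were 100% identical to their originals over 681, 678, 783 and 294 aligned bases. Gm28438 differed from mt-Nd3 at 1 of 345 aligned bases (T3C, counted from 1 at the first base of mt-Nd3, the mitochondrial base first). Gm29216 aligned only to bases 1063 to 1545 of mt-Co1 and differed at 1 of 483 (A1066T, counted in the same way from the first base of mt-Co1). The starts of 2 identical and the differing parts of the other 2 pairs, read 5′ to 3′ from the GENCODE M21 transcripts, show how little separates an original from its copy, with the differing base in capitals.
mt-Atp6, chrM:7927-7986, plus strand: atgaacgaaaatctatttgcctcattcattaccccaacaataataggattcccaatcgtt
Gm10925, chr1:24614592-24614651, minus strand: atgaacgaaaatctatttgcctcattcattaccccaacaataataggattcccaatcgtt
mt-Nd4l, chrM:9877-9936, plus strand: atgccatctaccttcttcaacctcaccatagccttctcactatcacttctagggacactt
Gm10222, chr1:24612641-24612700, minus strand: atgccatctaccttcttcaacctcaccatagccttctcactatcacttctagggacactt
mt-Nd3, chrM:9459-9491, plus strand: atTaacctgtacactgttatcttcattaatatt
Gm28438, chr1:24613087-24613119, minus strand: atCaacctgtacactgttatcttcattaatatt
mt-Co1, chrM:6390-6423, plus strand: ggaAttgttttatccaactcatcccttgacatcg
Gm29216, chr1:24616155-24616188, minus strand: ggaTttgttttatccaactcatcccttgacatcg

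A read that lies wholly within such an identical stretch fits both genes equally well, and the deposited values are estimated counts in which the counting program divided such reads. Results are therefore given both as deposited and with each copy's counts added to its original. The count table held 11 further nuclear genes whose transcripts aligned to a mitochondrial gene at 90% identity or more over at least 100 bases. Of these, Gm28439, identical to 876 bases of mt-Nd4, was listed at 0 in all libraries, and the other 10, at 90.7% to 97.6% identity, had 62 counts between them in all 18 libraries. Each nuclear gene was assigned to the mitochondrial gene that it matched best, and none was assigned to mt-Atp8. The 43 bases that mt-Atp8 shares with mt-Atp6 also lie within Gm10925.

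The 18 libraries held 18911059 to 24136572 counts each. Depth did not limit the shares below, whose 95% Wilson intervals reached at most 0.0098 percentage points to each side, for counting error only. Of the 37 genes, 15 had enough counts to be tested, namely the 13 protein genes and both ribosomal RNA genes, and none of the 22 transfer RNA genes did. Markers of dentate granule cells and CA pyramidal cells, which define the hippocampus, were checked in CPM (counts scaled to a common library total).

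Control replicate 2 went against its tissue label on these markers. Of the 6 dentate genes, 4 were lower there than in all 17 other libraries. Dsp had 0 counts, against 41.8 to 136 CPM in the others, C1ql2 had 0.408 CPM against 40.7 to 142 CPM, and Prox1 had 10.4 CPM against 83.4 to 145 CPM. Of the 6 CA genes, 5 were lower than in all others, among them Fibcd1 at 11.2 CPM against 107 to 344 CPM and Iyd at 0.136 CPM against 2.72 to 5.91 CPM, and Spock1 was higher. Of 7 neocortical genes, 4 were higher than in all others, with Lamp5 at 258 CPM against 25.7 to 42.8 CPM and Cux2 at 131 CPM against 22.8 to 46.8 CPM, while Fezf2 was within the range and Tshz2 and Hs3st4 were below it. In the other 17 libraries the 6 dentate genes summed to 399 to 662 CPM and the 6 CA genes to 535 to 1019 CPM. With copies counted, all 15 tested mitochondrial genes were higher in control replicate 2 than in each of the other 5 control mice. The main results against control mice are therefore given with and without it.

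A further 4 libraries stood apart in the sum of 6 thalamic markers. These summed to 231 CPM in exercise replicate 3 and 540.0 CPM in exercise replicate 6, the 2 exercised CSDS mice with the highest mitochondrial shares, and to 254 CPM in control replicate 1 and 489 CPM in control replicate 3, against 54.0 to 92.9 CPM in the other 14 libraries including control replicate 2. The comparisons were therefore also made without these 4 libraries and control replicate 2, called the 5 libraries with other regional markers below, which leaves 4 exercised CSDS mice, 6 CSDS mice and 3 control mice. Single thalamic markers did not all follow the sum. Lef1 had 9.04 CPM in exercise replicate 3, below the 11.0 CPM of control replicate 6. Ramp3 had 13.3 CPM in control replicate 2, against at most 4.24 CPM in CSDS mice.

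Among the 15 genes, the subunits of complex IV stood highest and mt-Atp8 and mt-Nd6 lowest, once copies were added and levels were expressed per kilobase of transcript. The mean over 18 libraries was 8651 ± 2707 CPM per kb (SD, n = 18) for mt-Co1, the catalytic subunit of complex IV, which exceeded the next gene in 18 of 18 libraries. mt-Co3 with its copy followed at 6553 and mt-Co2 with its copy at 6322 CPM per kb, and mt-Co3 was above mt-Co2 in 15 libraries. A clear step then led down to mt-Cytb, the mitochondrial subunit of complex III, at 2984 CPM per kb, which was below mt-Co2 in all 18 libraries. mt-Cytb and mt-Atp6 with its copy, at 2899 CPM per kb, were in this order in only 11 of 18 libraries. mt-Nd1 (2697), mt-Nd4 (1871) and mt-Nd2 (1684 CPM per kb) led the 7 subunits of complex I.

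Both ribosomal RNA genes lay below these, mt-Rnr2 at 1429 and mt-Rnr1 at 1314 CPM per kb, in libraries that were enriched for poly(A) RNA. mt-Nd3 with its copy (1226), mt-Nd5 (1129) and mt-Nd4l with its copy (988 CPM per kb) came next. mt-Atp8 averaged 562 and mt-Nd6, the only protein gene of the other strand, 560.3 CPM per kb, and mt-Atp8 was the higher one in 7 of 18 libraries. These 2 neighbours did not differ beyond their spread. The strand setting of the counting is not given in the sources used here, so RNA of mt-Nd6 and RNA of the opposite strand at the same place cannot be told apart. As deposited, without the copies, mt-Co2 had the lowest level of all 15 genes, 95.2 CPM per kb, followed upwards by mt-Nd4l (159), mt-Nd3 (253), mt-Co3 (334) and mt-Atp6 (347 CPM per kb). The 5 lowest places were thus taken by the 5 genes whose copy covers their whole or nearly whole length. Levels per kilobase used the annotated lengths, and short genes can lose fragments in library preparation, which was not corrected. The values are counts per annotated gene and do not show whether neighbours such as mt-Atp8 and mt-Atp6 lie on the same RNA.

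**Figure D1:**
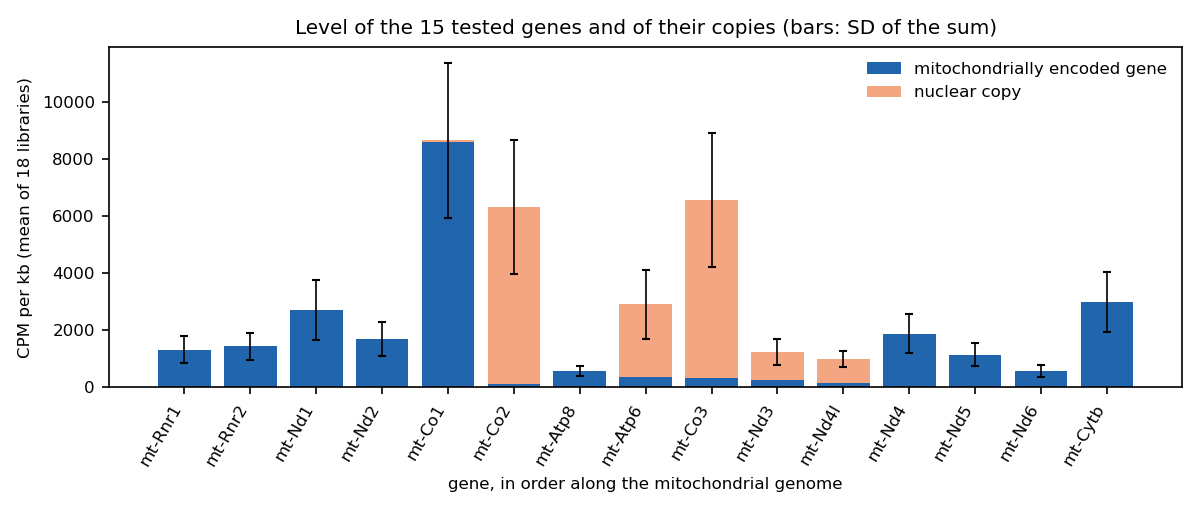
Bars give the mean level in CPM per kilobase over all 18 libraries for the 15 tested genes in their order along the mitochondrial genome, split into counts assigned to the mitochondrial gene and to its nuclear copy, with the SD of the sum. mt-Co2, mt-Co3, mt-Atp6, mt-Nd3 and mt-Nd4l carry most of their counts in the copy, while mt-Co1 carries 99.4% in the mitochondrial gene.

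The share of all counts taken by the 37 genes differed more within groups than between them. It averaged 3.46% ± 1.11 in exercised CSDS mice, 2.63% ± 0.92 in CSDS mice and 3.01% ± 1.02 in control mice (SD, n = 6 each). The lowest, median and highest shares were 1.71%, 3.36% and 5.10% in exercised CSDS mice, 1.86%, 2.29% and 4.23% in CSDS mice and 1.79%, 3.17% and 4.44% in control mice. The 3 ranges overlapped almost completely, and the lowest and the highest of all 18 values both came from exercised CSDS mice. The mean was 0.83 percentage points higher in exercised CSDS mice than in CSDS mice, 0.45 higher in exercised CSDS mice than in control mice, and 0.38 lower in CSDS mice than in control mice, each less than 1 SD. No test was made of these shares, which sum genes chosen with results of these data known. Without exercise replicate 3 the exercised CSDS mice exceeded CSDS mice by 0.50 points, and without exercise replicate 4 by 1.18 points. Without control replicate 2 the control mean was 2.73% ± 0.83 (SD, n = 5), with exercised CSDS mice 0.73 points above it and CSDS mice 0.10 points below it. Without the 5 libraries with other regional markers, exercised CSDS mice were 0.29 points above CSDS mice and 0.60 points above control mice, and CSDS mice were 0.31 points above control mice, so that the direction of this last difference turned.

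With the copies added, the shares were 4.72% ± 1.54 in exercised CSDS mice, 3.66% ± 1.28 in CSDS mice and 4.19% ± 1.51 in control mice, with the same wide overlap. The copies alone held 25.3 to 27.3% of the joint counts in exercised CSDS mice, 27.3 to 29.1% in CSDS mice and 24.8 to 30.1% in control mice. Every exercised CSDS library was below every CSDS library on that measure, while the control libraries spanned both. The gap was narrow, from 27.27% in exercise replicate 3 to 27.32% in CSDS replicate 5. How often other measures separate in this way was not determined. The 2 ribosomal RNAs made up 11.5 ± 0.917% of the 37 genes' counts in exercised CSDS mice, 11.9 ± 0.500% in CSDS mice and 11.3 ± 1.16% in control mice, so messenger and ribosomal RNA kept about the same proportion in the 3 groups. In bulk tissue, fewer cells rich in mitochondria and less mitochondrial RNA per cell cannot be told apart.

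**Figure D2:**
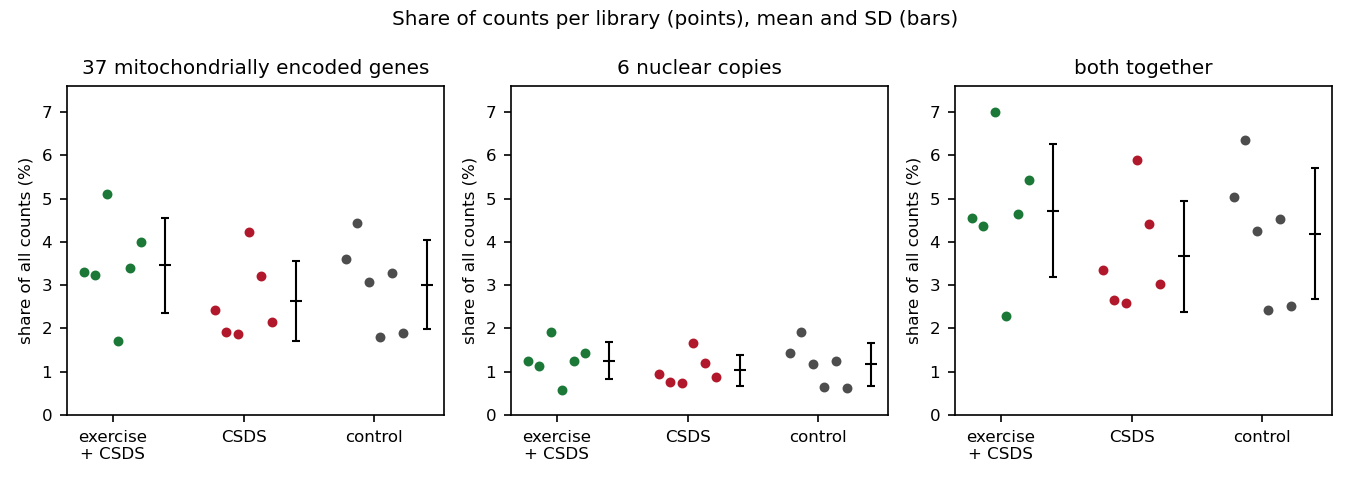
Each point is the share of all counts, in percent, in 1 library, for the 37 mitochondrially encoded genes, their 6 nuclear copies and both together, with the mean and SD of each group of 6 mice beside the points. The groups overlap in each panel, and exercise replicate 3 (5.10% for the 37 genes) and exercise replicate 4 (1.71%) mark the extremes.

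The genes varied together from library to library. mt-Cytb varied 1.16-fold and mt-Co1 1.17-fold between the lowest and the highest library when each was expressed as a share of the 37 genes' counts, against 3.05-fold and 2.63-fold in CPM. These were the narrowest shares, and mt-Co1 is itself a large part of the sum, which limits how far its share can move. mt-Nd5 varied 1.55-fold, mt-Rnr1 1.43-fold and mt-Nd6 1.32-fold as shares, against 3.59-, 3.82- and 3.75-fold in CPM. Of the genes to which no copy was added, mt-Atp8 had the widest range as a share, 2.41-fold. It averaged 0.324 ± 0.0451% of the 37 genes' counts in exercised CSDS mice, 0.435 ± 0.0960% in CSDS mice and 0.421 ± 0.131% in control mice. The gene codes for a small accessory subunit of ATP synthase and has the lowest GC content of the 15, 31.9%. Measured as deposited, mt-Co2 varied 17.2-fold in CPM, mt-Nd4l 11.8-fold, mt-Nd3 11.6-fold, mt-Atp6 6.38-fold and mt-Co3 6.05-fold. With their copies added the same 5 genes varied 3.46-, 3.17-, 4.19-, 3.80- and 3.17-fold, close to the genes that have no copy.

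The comparison of exercised CSDS mice with CSDS mice asks what training adds under defeat. 14 of the 15 tested genes had a higher mean level in exercised CSDS mice, but no gene was called. The median log2 fold change of the 15 was 0.39 beside 0.02 over all 16738 genes tested, and 53.5% of all genes were above 0. By edgeR's quasi-likelihood test with Benjamini-Hochberg adjustment over all genes, 0 of 15 had an adjusted p under 0.05 (background 0.0%). DESeq2 called 0 of 15 too (background 0.525%). Its background is over the 31251 genes with a DESeq2 p-value, a larger set than the 16738, so the 2 shares are not directly comparable. At an unadjusted p under 0.05, 2 of 15 were higher, mt-Atp6 and mt-Nd4l, against 8.1% of all genes, and none was lower, against 7.46% of all genes. The levels of 0 of the 15 genes separated the groups without overlap, against 0.364% of all genes that were higher and 0.526% that were lower in this way. By limma voom with quality weights, which gives noisy libraries less weight, 12 of the 15 were called, all higher. The same method called 33.3% of all genes, counted in either direction.

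Complex I is the entry point of electrons from NADH, and 7 of its subunits are mitochondrially encoded. Their summed level was 5080.2 to 17822 CPM (median 10122) in exercised CSDS mice, 5496 to 13282 CPM (median 7091) in CSDS mice and 5357 to 13263 CPM (median 9809) in control mice. The groups overlapped over most of their range. mt-Nd4, which builds part of the proton-pumping arm, measured 1473 to 4893 CPM (median 2820.4) in exercised CSDS mice, 1495 to 3524 CPM (median 1932) in CSDS mice and 1531 to 3664 CPM (median 2692) in control mice, a log2 fold change of 0.46 ± 0.269 (SE) between exercised CSDS mice and CSDS mice with an edgeR adjusted p of 0.397. mt-Nd5, at the far end of that arm, had 0.46 ± 0.256, mt-Nd1 0.44 ± 0.303, mt-Nd2 0.34 ± 0.282 and mt-Nd6 0.33 ± 0.282 on the log2 scale in the same comparison. These 5 genes have no counted copy, and their fold changes lay close together. mt-Nd3 had 0.80 ± 0.455 as deposited and 0.30 ± 0.315 with Gm28438 added.

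mt-Nd4l, the smallest of the 7, gave the largest fold change of the 15 genes and lost it when its copy was counted. As deposited it measured 21.2 to 110.1 CPM (median 81.4) in exercised CSDS mice, 16.03 to 50.4 CPM (median 33.7) in CSDS mice and 9.35 to 71.0 CPM (median 35.2) in control mice. 5 of the 6 exercised CSDS mice lay above every CSDS mouse, and exercise replicate 4 lay among them at 21.2 CPM. The log2 fold change was 1.19 ± 0.435 (SE; unadjusted p = 0.0130, edgeR adjusted p = 0.237). Together with Gm10222, whose sequence is the same over 294 of the 297 bases of mt-Nd4l, it measured 137 to 434 CPM (median 297) in exercised CSDS mice, 182 to 411 CPM (median 283) in CSDS mice and 144 to 419 CPM (median 306) in control mice. The medians of the 3 groups then differed little, and the log2 fold change was 0.056 ± 0.258 (edgeR adjusted p = 0.928).

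Complex III has 1 mitochondrially encoded subunit, mt-Cytb, which carries the haem groups of cytochrome b. It measured 2029.6 to 6196 CPM (median 3691) in exercised CSDS mice, 2077 to 4673 CPM (median 2647) in CSDS mice and 2123 to 5437 CPM (median 3382) in control mice. The log2 fold change between exercised CSDS mice and CSDS mice was 0.39 ± 0.262 (SE, edgeR adjusted p = 0.458). Each group held libraries on both sides of the others' medians.

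Complex IV, which passes electrons to oxygen, has 3 mitochondrially encoded subunits. mt-Co1 alone supplied 39.8% to 46.7% of the 37 genes' counts in a library and measured 8344 to 20789 CPM (median 14758) in exercised CSDS mice, 8350.3 to 18008 CPM (median 10034) in CSDS mice and 8046 to 21197 CPM (median 13581) in control mice. The log2 fold change was 0.34 ± 0.250 (SE, edgeR adjusted p = 0.495), smaller than the spread within groups. mt-Co3 had 0.43 ± 0.375 as deposited and 0.29 ± 0.282 with Gm28437 added. mt-Co2, which accepts electrons from cytochrome c, had 0.13 ± 0.455 as deposited and 0.31 ± 0.298 with Gm28661 added. With copies, the 3 subunits therefore stood at nearly the same log2 fold change.

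ATP synthase has 2 mitochondrially encoded subunits, whose genes share 43 bases. mt-Atp6, the subunit that forms the proton channel with the rotor, measured 117 to 493 CPM (median 367) in exercised CSDS mice, 77.3 to 286 CPM (median 146) in CSDS mice and 90.5 to 263 CPM (median 192) in control mice as deposited. 5 exercised CSDS mice exceeded every CSDS mouse and every control mouse, and exercise replicate 4 was low at 117 CPM. The log2 fold change was 1.03 ± 0.361 (SE; unadjusted p = 0.0104, edgeR adjusted p = 0.225). With Gm10925 added it measured 1003 to 3812 CPM (median 2196) in exercised CSDS mice, 1058 to 3013 CPM (median 1527) in CSDS mice and 1013 to 3398 CPM (median 1924) in control mice, and the log2 fold change was 0.46 ± 0.319 (edgeR adjusted p = 0.475), like that of the genes without a copy. mt-Atp8, just upstream, was the 1 gene of the 15 whose fold change was not positive, at -0.018 ± 0.244 on the log2 scale, with levels of 55.0 to 166 CPM (median 111) in exercised CSDS mice, 61.5 to 166 CPM (median 106) in CSDS mice and 79.0 to 182 CPM (median 119) in control mice. Its 3 ranges were nearly the same.

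The ribosomal RNAs of the mitochondrial ribosome had fold changes within the range of the messenger RNAs. mt-Rnr2, the large one, measured 1398 to 3943 CPM (median 2589) in exercised CSDS mice, 1409.9 to 3292 CPM (median 1773) in CSDS mice and 1175 to 3022 CPM (median 2525) in control mice, a log2 fold change of 0.35 ± 0.263 (SE) between exercised CSDS mice and CSDS mice. mt-Rnr1, the small one, had 0.32 ± 0.290 in the same comparison. With the copies added to their originals, 0 of the 15 genes had an unadjusted p under 0.05 in either direction, against 15.5% of all 16732 features tested, and the median log2 fold change was 0.33. Without the 5 libraries with other regional markers the median was 0.13 as deposited and 0.068 with copies added, and 13 of the 15 genes were above 0 in both. The share of all genes above 0 is not given for these fits.

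**Figure D3:**
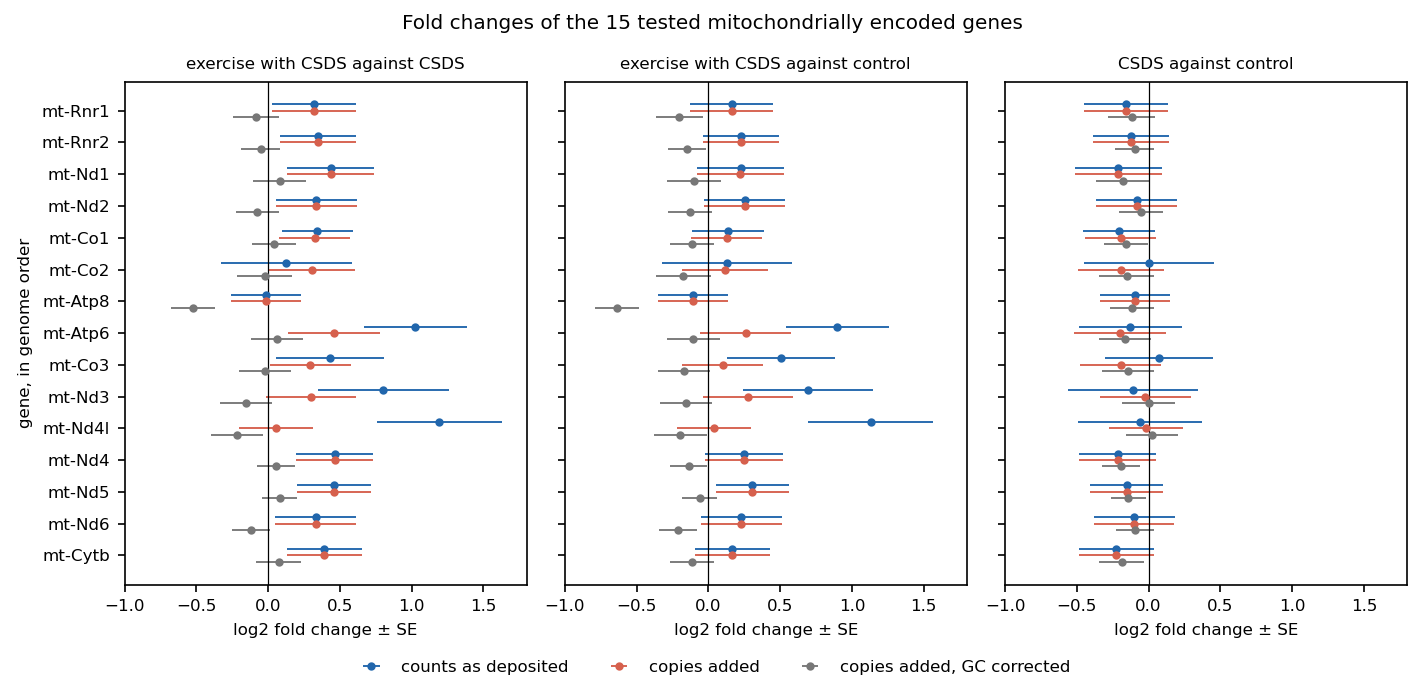
Points give log2 fold changes with SE from edgeR for the 15 tested genes in genome order, in 3 panels for exercised CSDS mice against CSDS mice, exercised CSDS mice against control mice and CSDS mice against control mice, in counts as deposited, with nuclear copies added, and with copies added after a correction for GC content. mt-Atp6, mt-Nd3 and mt-Nd4l stand to the right as deposited in both exercise panels and join the other genes once copies are added, and with the GC correction most lie near 0 while mt-Atp8 lies below it in both exercise panels.

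Exercised CSDS mice were also set against control mice, who differ from them in both defeat and training. 14 of the 15 genes were above 0, with a median log2 fold change of 0.23 beside 0.01 over all genes, of which 52.0% were above 0. 0 of 15 were called by edgeR, beside 0.0179% of all genes. DESeq2 and limma voom also called 0 of 15, beside 0.349% of the 31251 genes with a DESeq2 p-value and 1.09% of the 16738 genes. At an unadjusted p under 0.05, the same 2 genes were higher, mt-Atp6 at 0.90 ± 0.360 and mt-Nd4l at 1.13 ± 0.435 on the log2 scale (edgeR adjusted p = 0.369 and 0.347), beside 6.79% of all genes. With copies added they stood at 0.26 ± 0.318 and 0.04 ± 0.258, and none of the 15 had an unadjusted p under 0.05, beside 11.2% of all features. mt-Co1 had a log2 fold change of 0.14 ± 0.250. Without control replicate 2 all 15 genes were above 0 and 0 were called, the median was 0.38 as deposited and 0.35 with copies added, and mt-Co1 stood at 0.31 ± 0.241. Without the 5 libraries the medians were 0.29 and 0.31. For these fits with libraries left out, the shares of all genes above 0 or called are not given. This comparison shares the exercised CSDS libraries with the preceding one, so the 2 are not independent.

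CSDS mice against control mice shows defeat without training. 2 of the 15 genes were above 0 as deposited and 0 with copies added, and the median log2 fold change was -0.12 as deposited beside -2.4e-05 over all genes, 50.0% of which were above 0. edgeR, DESeq2 and limma voom each called 0 of 15, beside 0.0%, 0.0032% and 0.0% of all genes, where the DESeq2 share is over 31251 genes. 0 of 15 had an unadjusted p under 0.05 by edgeR, beside 3.51% of all genes. mt-Cytb had -0.22 ± 0.261, mt-Nd4 -0.21 ± 0.269 and mt-Co1 -0.21 ± 0.250 on the log2 scale, each smaller than its SE. mt-Co3 stood at 0.073 ± 0.375 as deposited and at -0.19 ± 0.282 with Gm28437 added. These values depended on control replicate 2. Without it 7 of the 15 genes were above 0 as deposited and 8 with copies added, with medians of -0.0091 and 0.020. Without the 5 libraries with other regional markers all 15 were above 0 in both, with medians of 0.20 and 0.24, and 0 were called. Shares of all genes above 0 or called are not given for the fits with libraries left out.

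On simulated counts of this design, edgeR recovered 78% of 2-fold and 48% of 1.5-fold changes in exercised CSDS mice against CSDS mice, with 8 false calls among 16696 genes. It recovered 86% and 48% in exercised CSDS mice against control mice, with 8 false calls among 16697 genes. In CSDS mice against control mice it recovered 92% and 52%, with 11 false calls among 16691 genes. Recovery was counted over 100 genes changed 2-fold and 50 changed 1.5-fold in each comparison, and not separately for the mitochondrial genes. These varied together from library to library, with a median within-group SD of 0.55 in log2 CPM. The rates therefore do not give the power for the mitochondrial genes, which was not tested.

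The division of counts between a gene and its copy was itself measured. Over all libraries mt-Co2 held 1.52% of the counts of mt-Co2 and Gm28661 together, mt-Co3 5.07%, mt-Atp6 11.9%, mt-Nd4l 15.8%, mt-Nd3 20.5% and mt-Co1 99.4% of its own pair. The 5 genes other than mt-Co1 had 264664 counts between them and their copies 4368316. mt-Nd4l kept 15.5 to 29.3% (median 24.7) in exercised CSDS mice, 8.80 to 12.4% (median 11.6) in CSDS mice and 4.17 to 16.9% (median 11.2) in control mice. Every exercised CSDS library was above every CSDS library, with means of 24.1 ± 4.68% in exercised CSDS mice and 11.1 ± 1.42% in CSDS mice, while exercise replicate 4 (15.5%) lay below the highest of the control mice, whose mean was 10.7 ± 4.79%. mt-Nd3 kept 23.9 ± 4.38% in exercised CSDS mice, 16.4 ± 4.66% in CSDS mice and 17.4 ± 3.76% in control mice, and mt-Atp6 15.1 ± 2.81% in exercised CSDS mice, 10.1 ± 3.65% in CSDS mice and 10.1 ± 2.39% in control mice, with overlap in both. For mt-Co2 and mt-Co3 the means were within 1 SD of each other in the 3 groups. These shares were not tested, and they depend on how the counting program divided reads. How often groups separate without overlap on a share of this kind was not determined.

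Gm29216, the copy of the end of mt-Co1, was the 1 copy whose own level differed widely between groups. It measured 0.611 to 13.7 CPM (median 1.76) in exercised CSDS mice, 9.44 to 279 CPM (median 215) in CSDS mice and 14.5 to 162 CPM (median 41.9) in control mice. Every exercised CSDS library was below every control library, which was so for 0.102% of all genes, and the CSDS range began within that of the exercised CSDS mice. The log2 fold changes were -5.40 ± 0.961 in exercised CSDS mice against CSDS mice and -4.06 ± 0.912 in exercised CSDS mice against control mice (SE, edgeR adjusted p = 0.143 and 0.139), so it was not called. Against the 99.4% of the pair held by mt-Co1 these counts were few, and the log2 fold change of mt-Co1 was 0.34 ± 0.250 without and 0.32 ± 0.246 with them. The other 5 copies had log2 fold changes of -0.18 ± 0.238 for Gm10222, 0.16 ± 0.288 for Gm28438, 0.29 ± 0.285 for Gm28437, 0.31 ± 0.298 for Gm28661 and 0.38 ± 0.321 for Gm10925 in exercised CSDS mice against CSDS mice.

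**Figure D4:**
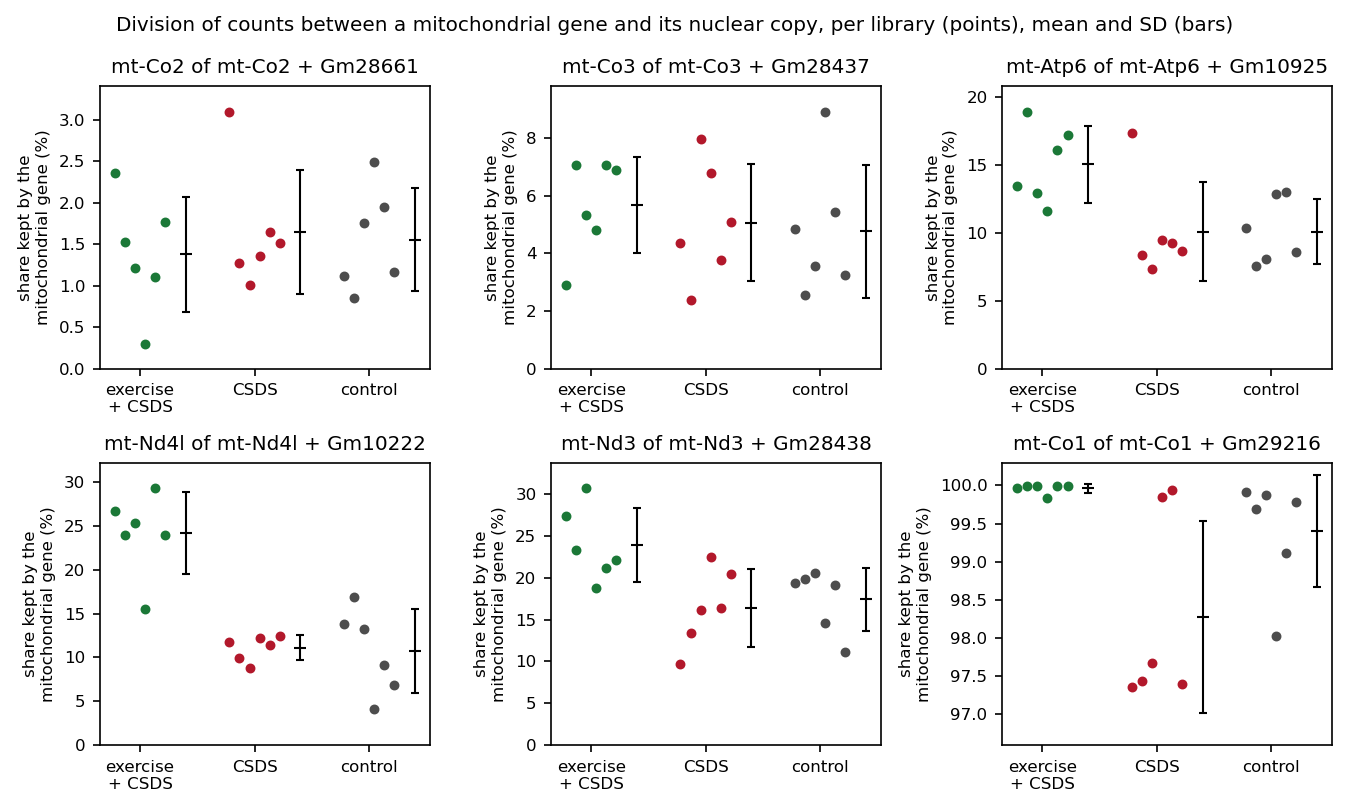
Each point is the share, in percent, that a mitochondrially encoded gene kept of the counts of itself and its nuclear copy in 1 library, for 6 pairs, with the mean and SD of each group of 6 mice. The exercised CSDS mice lie above the CSDS mice for mt-Nd4l without overlap, while mt-Co2 and mt-Co3 mix, and the axis of mt-Co1 runs only over the top few percent.

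The mitochondrial share moved with a property of each library that involves none of these genes. For every library, the deviation of the nuclear genes' log2 CPM from the mean of all libraries was regressed on the GC content of their transcripts. The slope, per 10 points of GC, was -0.442 to 0.192 in exercised CSDS mice, -0.151 to 0.283 in CSDS mice and -0.0897 to 0.305 in control mice, so that genes rich in GC were relatively low in 5 of 6 exercised CSDS libraries. Across the 18 libraries the slope and the share of the 37 genes had a Pearson correlation of -0.91 and a Spearman correlation of -0.86. Pearson's value was -0.93 without control replicate 2 and -0.89 without the 5 libraries with other regional markers. Without the 2 libraries farthest from the median slope Pearson's value was -0.86, and it was -0.97 within the exercised CSDS mice, -0.97 within the CSDS mice and -0.89 within the control mice (n = 6 each). Spearman's values within these groups were -0.77, -0.89 and -1.0 in the same order. The slope and the share come from the same libraries, so these are descriptions with no test. The tested mitochondrial genes have a median GC content of 36.0% (31.9% to 41.1%), against 50.5% over all tested genes.

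With each library's GC trend entered as an offset in edgeR, the median log2 fold change of the 15 genes was 0.064 in exercised CSDS mice against CSDS mice, -0.11 in exercised CSDS mice against control mice and -0.11 in CSDS mice against control mice. The direction of the exercise comparison with control mice thus turned, with 4 of 15 genes above 0, and the comparison with CSDS mice shrank to near 0, with 9 above 0. Without control replicate 2 the 3 medians were 0.063, -0.020 and -0.055. With copies also added, 6, 0 and 1 of 15 genes were above 0 in these 3 comparisons, and 0 were called. mt-Atp8 then stood at -0.52 ± 0.155 in exercised CSDS mice against CSDS mice (edgeR unadjusted p = 0.00322, adjusted p = 0.649) and at -0.64 ± 0.155 in exercised CSDS mice against control mice (edgeR unadjusted p = 0.000617, adjusted p = 0.252). The trend was fitted over all tested genes with a GC value, the mitochondrial genes included. Such a correction removes differences that follow GC content whatever their origin, so the origin of the differences was not tested. For the GC-corrected fits, the share of all genes above 0 is not given. The part of library composition in the share was not tested further.

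**Figure D5:**
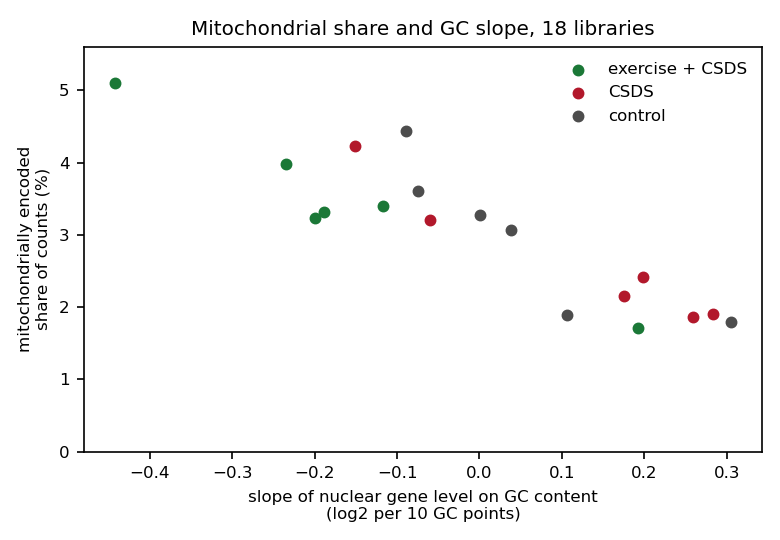
Each point is 1 library, with the slope of nuclear gene level on GC content on the horizontal axis (log2 per 10 points of GC) and the share of counts of the 37 mitochondrially encoded genes, in percent, on the vertical axis. Shares tend to fall from left to right in all 3 groups, though not at every step in the exercised CSDS and CSDS mice. They run from 5.10% at the lowest slope, an exercised CSDS library, to under 2% at the highest slopes.

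Transfer RNA genes were at the limit of detection. 13 of the 22 had 0 counts in every library, and the other 9 had 101 counts in all. Of these, 6 counts were in exercised CSDS mice, 42 in CSDS mice and 53 in control mice, with 0 to 2, 2 to 15 and 5 to 15 counts per library. mt-Ts1, a serine transfer RNA whose gene lies on the strand opposite to mt-Co1 and shares 3 bases with its end, had the most, with 1 count in exercised CSDS mice, 21 in CSDS mice and 25 in control mice. A count of 0 allows up to 3 counts, which is 0.124 to 0.159 CPM in these libraries, so the low values in exercised CSDS mice bound the level but give no fold change. None passed the filter on low counts.

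The nuclear genes that make, copy and process mitochondrial RNA were described from lists chosen with earlier results of these data known. None of their members was called by edgeR in any of the 3 comparisons. Of all genes it called 0.0179% in exercised CSDS mice against control mice and 0.0% in each of the other 2 comparisons. Of 10 tested genes of mitochondrial transcription, 9 were above 0 in exercised CSDS mice against CSDS mice, beside 53.5% of all genes. Their median log2 fold change was 0.19. Tfam, which packs mitochondrial DNA and starts transcription, had 0.18 ± 0.120 and the polymerase Polrmt -0.42 ± 0.198 (SE, edgeR adjusted p = 0.450 and 0.311). Polrmt averaged 22.0 ± 5.06 CPM in exercised CSDS mice, 29.5 ± 8.22 CPM in CSDS mice and 26.0 ± 6.84 CPM in control mice. Within the CSDS mice it was 33.0 to 36.9 CPM in replicates 1, 2, 3 and 6. In replicates 4 and 5, whose GC slopes were -0.151 and -0.0599, it was 19.8 and 18.3 CPM. Fold changes of the genes in this and the next paragraph are given without the GC correction, and the part of GC content in them was not tested. Among 8 genes of mitochondrial DNA replication, 3 were above 0 and the median was -0.11, with Twnk, the helicase, at -0.19 ± 0.0906 and Rnaseh1, which removes RNA from RNA-DNA hybrids, at -0.27 ± 0.111.

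Of 21 genes of mitochondrial RNA processing and decay, 16 were above 0 in exercised CSDS mice against CSDS mice, beside 53.5% of all genes. Their median was 0.13. Pnpt1, the mitochondrial polynucleotide phosphorylase that degrades RNA, had 0.42 ± 0.140 (SE, edgeR unadjusted p = 0.00712, adjusted p = 0.217) and averaged 11.3 ± 2.55 CPM in exercised CSDS mice, 8.45 ± 1.06 CPM in CSDS mice and 9.66 ± 1.45 CPM in control mice. Fastkd5, known in human cells for processing mitochondrial messengers that lack a flanking transfer RNA, had 0.24 ± 0.114 in exercised CSDS mice against CSDS mice and -0.30 ± 0.114 in CSDS mice against control mice. Both comparisons share the CSDS libraries. Of 12 regulators of mitochondrial biogenesis, 7 were above 0 in exercised CSDS mice against CSDS mice, beside 53.5% of all genes. Among them were Prkaa1, a catalytic subunit of AMP kinase, at 0.34 ± 0.113, and Sirt1, a deacetylase of the co-activator PGC-1α, at 0.31 ± 0.127. Esrra, an oestrogen-related nuclear receptor, had -0.30 ± 0.122. Of 11 tested mitochondrial translation factors, 6 were above 0, again beside 53.5% of all genes. Mtif2, an initiation factor, stood at 0.31 ± 0.114 and Tufm, the elongation factor, at -0.24 ± 0.0839.

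The 75 nuclear genes of respiratory chain and ATP synthase subunits had a smaller median fold change than the mitochondrial ones as deposited, and not with the GC correction. In exercised CSDS mice against CSDS mice 54 of 75 were above 0, beside 53.5% of all genes. The median log2 fold change was 0.076, against 0.39 for the 15 mitochondrial genes. With the GC correction the medians were 0.084 for the 75 and 0.064 for the 15, and -0.022 for the 15 with copies added as well. In exercised CSDS mice against control mice 37 were above 0, beside 52.0% of all genes, with a median of -0.011. In CSDS mice against control mice 5 were above 0, beside 50.0% of all genes, with a median of -0.073. Without control replicate 2 these became 53 above 0 with a median of 0.070 and 34 above 0 with a median of -0.0080, and the share of all genes is not given for that fit. 1 of 75 had an unadjusted p under 0.05 in the first comparison, beside 15.6% of all genes. It was Atp5d, a subunit of the ATP synthase stalk, which measured 117 to 134 CPM (median 133) in exercised CSDS mice, 150.5 to 184 CPM (median 174) in CSDS mice and 117 to 187 CPM (median 177) in control mice. Every exercised CSDS library lay below every CSDS library, which was so for 0.526% of all genes, and the log2 fold change was -0.40 ± 0.0963 (SE, edgeR unadjusted p = 0.000546, adjusted p = 0.160). Summed over the 75 genes, the level was 7640.1 to 11239.6 CPM (median 10356) in exercised CSDS mice, 8539.6 to 11485 CPM (median 9298) in CSDS mice and 6976 to 12124 CPM (median 11050.5) in control mice.

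Other features of the libraries varied beside the mitochondrial share, and their part in it was not tested. Nuclear long noncoding RNAs, 8 of 8 tested, summed to 1179 to 2891 CPM (median 1618) in exercised CSDS mice, 1029.9 to 1854 CPM (median 1261) in CSDS mice and 768 to 1241 CPM (median 934) in control mice. Malat1, an abundant RNA of nuclear speckles, had a log2 fold change of 0.54 ± 0.205 in exercised CSDS mice against CSDS mice (edgeR adjusted p = 0.249). Against control mice it stood at 1.14 ± 0.207 in exercised CSDS mice and 0.60 ± 0.205 in CSDS mice (edgeR adjusted p = 0.070 and 0.993). In exercised CSDS mice against control mice, 6 of the 8 were higher at an unadjusted edgeR p under 0.05, beside 6.79% of all genes, and none was called. The 4 genes listed as not polyadenylated or linked to ribosomal RNA, 2 of them tested, summed to 164 to 239 CPM in exercised CSDS mice, 113 to 611 in CSDS mice and 78.3 to 169 in control mice. Most of this sum was Lars2, which had 603 CPM in CSDS replicate 4, the library with 611. The sums of the other CSDS libraries reached at most 180 CPM, so the sum mainly describes this gene. Markers of choroid plexus, the secretory epithelium of the brain ventricles, summed over 8 genes to 67.5 to 6592 CPM in exercised CSDS mice, 99.3 to 8498 in CSDS mice and 19.7 to 5488 in control mice. Neocortical markers (7 genes) summed to 291 to 396 CPM in exercised CSDS mice, 313 to 413 in CSDS mice and 301 to 744 in control mice, where control replicate 2 was the highest and the next control library had 353 CPM. Control replicate 2 also had the lowest dentate, CA and choroid plexus sums of the control mice. Neuron, astrocyte, oligodendrocyte, microglia and endothelial markers, 5 genes each, varied 1.85-, 1.38-, 1.89-, 1.60- and 1.67-fold in their sums over the 18 libraries, and blood cell markers 27.9-fold.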

How the data were processed

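The deposited values are RSEM-style expected counts, estimated by the authors for each gene in each library and not normalized, and 22.7% of those above 0 were not whole. Per the labels' protocols, only RNA with a RIN of 7 or higher went into stranded poly(A) libraries. Per the submitters' processing notes, fastp, HISAT2, RSEM and GRCm38 (mm10) were used, with versions, annotation and strand setting not given in the sources used here. Of 57180 identifiers, 51884 matched a symbol, and the unmatched held 0.62% of counts.

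Counts were rounded and tested with edgeR 4.0.16 (R 4.3.3): filterByExpr (minimum count 10, total 15), TMM scaling, and a quasi-likelihood F test over all 18 libraries with 1 term per group. p-values were adjusted by Benjamini-Hochberg over 16738 genes, and a gene was called at an adjusted p under 0.05. The script was tested on simulated counts. Nuclear copies were found with blastn (BLAST 2.17.0) among GENCODE M21 transcripts, and copies with 99% identity or more and counts were added to their originals. GC trends were smoothed over a span of 0.3, with GC values for 98.1% of tested genes. Sequences and coordinates are those of GENCODE M21 on GRCm38.

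The genes named are all those with an mt- symbol, their nuclear copies with at least 1 CPM, and the 4 genes with the smallest p of each other list. The 37 genes, the 19 lists and the tests were chosen with earlier results of these data known. Alternatives were DESeq2 1.42.0, limma 3.58.1 (voom with quality weights), other scalings and filters, fits to the compared groups only, a replicate block, GC correction, added copies and leaving out each library. Adding copies together with the GC correction or with a library left out, and leaving out 5 libraries with markers of other regions, were chosen after seeing the data.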

Additional observations from a re-analysis of the deposited data

Results flagged for a closer look

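In 84 groups of 6 libraries, a single library stood apart from the other 5 of its group in 6 cases, where chance gives about 1 in 20 groups. mt-Nd3 reached 154.6 CPM in CSDS replicate 4, against 31.8 to 76.2 CPM in the other CSDS mice. The copy Gm10925 also stood highest in CSDS replicate 4, at 2727 CPM, against 981 to 1612 CPM in the others, and that library has the highest mitochondrial share of the CSDS mice. mt-Atp6 kept 17.4% of the counts shared with Gm10925 in CSDS replicate 1, against 7.30% to 9.49% in the others. mt-Co2 kept 3.10% of the counts shared with Gm28661 in the same library, against 1.01% to 1.65%. mt-Co1 kept 99.8% of its pair in exercise replicate 4, the lowest of the exercised CSDS mice, where the copy Gm29216 reached 13.7 CPM against 0.61 to 4.48 CPM in the other 5.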

How the results depend on the processing

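No member was called by edgeR under any alternative in any comparison, and limma voom alone changed a count, calling 12 in exercised CSDS mice against CSDS mice, where DESeq2 called 0. Without 1 library each, 0 members were called as deposited or with copies added. The median log2 fold change ranged from 0.22 to 0.57 in exercised CSDS mice against CSDS mice, from 0.06 to 0.38 in exercised CSDS mice against control mice and from -0.33 to -0.003 in CSDS mice against control mice, and with copies added from 0.17 to 0.53, 0.03 to 0.35 and -0.35 to 0.02. The difference in share ranged from 0.50 to 1.18, 0.12 to 0.80 and -0.70 to -0.10 percentage points. The lowest values of both exercise comparisons came without exercise replicate 3. Leaving out libraries also turned mt-Co2 (-0.033 to 0.35) and mt-Atp8 (-0.17 to 0.13) in exercised CSDS mice against CSDS mice, and mt-Co3 (-0.27 to 0.25) in CSDS mice against control mice.

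As deposited, 14, 14 and 2 of the 15 genes were above 0 in exercised CSDS mice against CSDS mice, exercised CSDS mice against control mice and CSDS mice against control mice. The counts were 9, 4 and 2 with the GC correction, 6, 0 and 1 with copies added as well, and 7, 10 and 10 with scaling to the mitochondrial messenger sum. Without control replicate 2 the GC correction gave 9, 7 and 3, and 6, 4 and 3 with copies. Of all genes, 53.5%, 52.0% and 50.0% were above 0 as deposited, and the shares under these other settings are not given. Of the genes whose values are given for a comparison, directions turned as follows on the log2 scale, and the cause was not tested. In exercised CSDS mice against CSDS mice, scaling to the mitochondrial messenger sum gave mt-Rnr1 -0.075, mt-Rnr2 -0.034, mt-Nd2 -0.071, mt-Co1 -0.027, mt-Co2 -0.33, mt-Nd6 -0.066 and mt-Cytb -0.0099, and it moved the median of all genes to -0.33, -0.19 and 0.16 in the 3 comparisons. The GC correction gave mt-Rnr1 -0.085, mt-Rnr2 -0.054, mt-Nd2 -0.076, mt-Co2 -0.24 and mt-Nd6 -0.12. With copies added as well it gave mt-Rnr1 -0.084, mt-Rnr2 -0.053, mt-Nd2 -0.074, mt-Co2 -0.022, mt-Co3 -0.022, mt-Nd3 -0.15, mt-Nd4l -0.22 and mt-Nd6 -0.12. limma voom gave mt-Atp8 0.095. In exercised CSDS mice against control mice, the messenger scaling gave mt-Co1 -0.035, the GC correction mt-Co1 -0.11, and with copies added mt-Co1 -0.11, mt-Atp6 -0.10 and mt-Nd4l -0.19. In CSDS mice against control mice mt-Co3 was -0.44 by limma voom, -0.0067 with the replicate block, -0.19 with copies added and -0.15 with copies and GC correction. Without the 5 libraries with other regional markers, CSDS mice against control mice had mt-Co1 at 0.20, mt-Nd4 at 0.084 and mt-Cytb at 0.18, or 0.19, 0.065 and 0.16 with copies, and exercised CSDS mice against CSDS mice had mt-Co2 at -0.14, or mt-Nd4l at -0.21 with copies. Whether the replicate numbers pair the mice is not settled here. Correlations of same-numbered deviations ran from -0.47 to 0.25, and differently numbered mice were not set beside them. With the numbers as a replicate block, 0 members were called and the medians were 0.36, 0.25 and -0.063 in the 3 comparisons.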
